A study of Mus musculus with 16 samples.

Results

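The comparison was between mice raised without and with secretory IgA (SIgA) from their mother's milk, measured in colonic epithelial cells after a chemical colitis. It rests on 8 of the study's 16 arrays, chosen by their labels: 4 titled as negative for passive SIgA and 4 titled as positive, all positive for dextran sulfate sodium (DSS). The 4 arrays without passive SIgA came from offspring of Pigr-/- dams, 2 from Pigr+/- offspring and 2 from Pigr-/- offspring. The 4 arrays with passive SIgA came from offspring of Pigr+/- dams, again 2 from Pigr+/- and 2 from Pigr-/- offspring. All mice were C57BL/6, 70 days old and gender-matched, and had been given 2% DSS in their drinking water for 8 days. Each array carried RNA pooled from 3 mice, so that each arm held 12 mice, and the 8 untreated arrays of the same 4 genotype combinations are used below only for comparison. Dam genotype is a property of a whole litter, the labels name neither litters nor array batches, and a litter or batch effect cannot be told apart from passive SIgA in these arrays.

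SIgA is dimeric IgA carried across an epithelium by the polymeric immunoglobulin receptor, Pigr, and released into milk or the gut lumen with part of the receptor attached. A Pigr-/- dam cannot load her milk with it, and a Pigr-/- offspring cannot export its own (here called active SIgA) even when its dam could. In the gut SIgA coats bacteria and limits their contact with the epithelium. DSS is a sulfated polysaccharide that injures the colonic epithelium, after which absorptive functions decline and antimicrobial, inflammatory and repair genes are induced.

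Whole-transcript array signal is given throughout as a level on the log2 scale, and each difference is the mean of the differences in Pigr+/- and in Pigr-/- offspring, without minus with passive SIgA, ± standard error (SE). Array medians over all 35557 probe sets ran from 6.68 to 6.75 on the 8 DSS arrays, and array means over the genes tested from 7.18 to 7.25. Mean levels of the goblet list (10.9 to 11.2) and of the absorptive colonocyte list (10.7 to 10.9) were high on every DSS array. Those of the macrophage (6.31 to 6.60) and B cell (6.20 to 6.46) lists lay below the array medians. The smooth muscle list (6.60 to 6.99) ran from below to above them. The fibroblast list (7.02 to 7.30) lay above the medians on every DSS array but around the means over the genes tested. The neutrophil list ran from below to above the medians (6.58 to 7.07). Pigr marked the offspring genotype: without passive SIgA it stood at 12.46 and 12.44 in Pigr+/- and 11.48 and 11.58 in Pigr-/- offspring, and with passive SIgA at 12.38 and 12.38 in Pigr+/- and 11.34 and 11.39 in Pigr-/- offspring. The passive SIgA difference in Pigr was 0.12 ± 0.07 (adjusted p = 1), and no gene checks the genotype of the dam. On the first principal component of the DSS arrays, which held 37.6% of the variance, the arrays without passive SIgA (-10.2 to 3.7) lay inside the range of those with it (-19.7 to 24). First and second pools lay apart on this component. With passive SIgA the first stood at -19.7 and -9.9 and the second at 24 and 12.9. Without it the order was reversed, at 3.1 and 3.7 against -10.2 and -3.7. The replicate pools with passive SIgA and Pigr+/- offspring stood furthest apart, with a spread (SD over genes) of 0.317 between them against 0.187 to 0.223 in the other DSS groups. Over 7 sex-linked genes the mean level ran from 6.75 to 6.97 without passive SIgA and from 6.91 to 7.399 with it. Kdm5d, on the Y chromosome, had 7.22, 6.84, 7.23 and 6.87 without passive SIgA and 7.31, 8.20, 7.91 and 7.20 with it (-0.62 ± 0.27, adjusted p = 1). Their part in the results below was not tested.

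No single gene passed the test in colitic mice lacking passive SIgA. Among the genes with the smallest p, the U3 RNA gene Rnu3a, the transporter gene Slc37a2 and the proton pump gene Atp12a were on the higher side, and Ptk6, Vnn1, Cpe and Angptl4 on the lower side. At an adjusted p under 0.05, 0 of 19938 genes (0%) were called, and the smallest adjusted p was 0.0645 (limma, Benjamini-Hochberg over all genes). At an adjusted p under 0.1 there were 17 genes (0.0853%), 13 higher and 4 lower, of which 12 were small RNAs and the others were Slc37a2, Ptk6, Vnn1, Angptl4 and Cpe. At an unadjusted p under 0.05 there were 788 genes (3.95%), 240 of them higher (1.2%) and 548 lower (2.75%). The 4 arrays without passive SIgA lay all above the 4 with it for 223 genes (1.12%) and all below them for 392 (1.97%). The median difference over all genes was -0.01. With the replicate number as a block, 16 genes were called, 13 higher and 3 lower. Among them were Rnu3a, Slc37a2, Rny1, Ptk6, Vnn1 and Cpe (limma, adjusted p of 0.029 to 0.0359). The main fit had no such block, although deviations of same-numbered pools were correlated between many groups. The call therefore depends on the fit, and no gene below is described as changed by passive SIgA after DSS.

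The 10 genes with the smallest p on each side, among those with the same sign in both offspring genotypes, were taken as named genes. Predicted, unnamed, small nucleolar, microRNA, chemosensory and ribosomal RNA (n-) symbols were left aside. For 9 of the 10 higher and all 10 lower ones the arms did not overlap (1.12% and 1.97% of all genes did so), which their choice by small p makes likely. Values of single arrays are given below in a fixed order, both pools of Pigr+/- offspring and then both pools of Pigr-/- offspring.

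**Figure D1:**
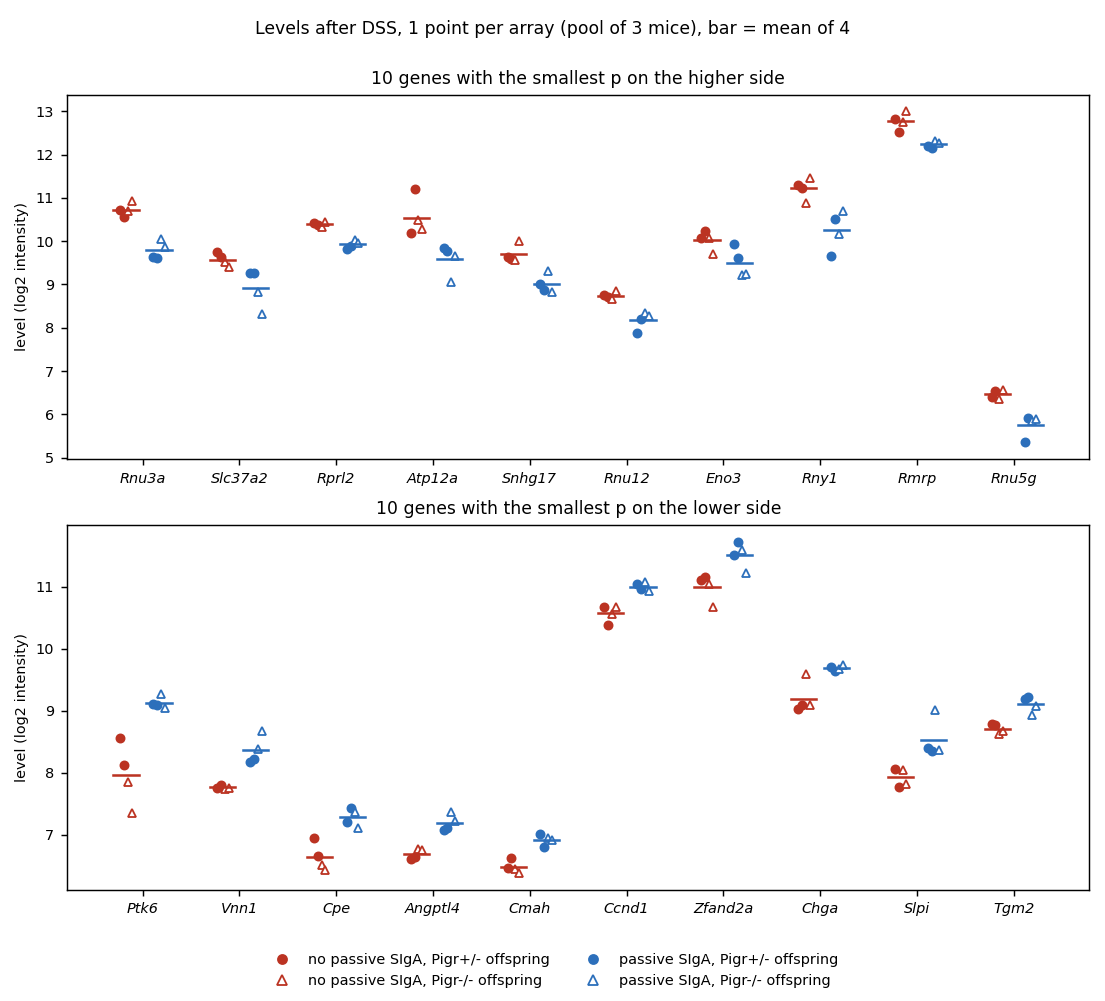
Log2 level of the 20 named genes on each of the 8 DSS arrays, with bars at the mean of 4 arrays; red, without passive SIgA, blue, with passive SIgA, circles for Pigr+/- and open triangles for Pigr-/- offspring. The colours separate for every gene but Eno3, and for Ptk6 the arrays without passive SIgA spread from 7.34 to 8.55 while those with it sit between 9.04 and 9.27.

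Ptk6 encodes a non-receptor tyrosine kinase (BRK) of differentiating epithelial cells. Its levels were 8.55, 8.12, 7.85 and 7.34 without passive SIgA, and 9.11, 9.10, 9.27 and 9.04 with it. The arms did not overlap, the arrays with passive SIgA lay close together, and those without it were spread over more than 1 log2 unit, lowest in Pigr-/- offspring. The difference was -1.16 ± 0.15 (adjusted p = 0.0645), the largest downward one of all genes, at -0.77 in Pigr+/- and -1.56 in Pigr-/- offspring. Ptk6 rose with DSS in mice without passive SIgA, by 0.66 over untreated mice (adjusted p = 0.031), and in mice with it, by 1.72 (adjusted p = 2.05e-05). In untreated mice the passive SIgA difference was -0.10.

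Vnn1, vanin-1, a pantetheinase of epithelial cells, had 7.75, 7.80, 7.74 and 7.75 without passive SIgA and 8.18, 8.23, 8.38 and 8.68 with it. The arrays without passive SIgA were nearly equal and all below the others, and the difference was -0.60 ± 0.09 (adjusted p = 0.0645). Vnn1 rose with DSS in both arms, by 0.43 without and by 1.11 with passive SIgA (adjusted p = 0.0158 and 1.11e-05). Angptl4, a secreted inhibitor of lipoprotein lipase, had 6.60, 6.64, 6.76 and 6.75 without passive SIgA and 7.08, 7.11, 7.37 and 7.22 with it. The arms were again apart, by -0.51 ± 0.09 (adjusted p = 0.071). Its DSS difference was -0.28 without and 0.24 with passive SIgA, and neither passed the test. Pdk4, a kinase that restrains pyruvate oxidation and, like Angptl4, a member of the fatty acid oxidation list, had 9.45, 9.45, 9.15 and 9.61 without and 9.82, 9.62, 10.12 and 10.08 with passive SIgA, a difference of -0.49 ± 0.12 (adjusted p = 0.363). Of the 27 fatty acid oxidation genes measured, 19 were below 0 (all genes 55%), with a median of -0.04. At an unadjusted p under 0.05, 2 were lower and 1 higher (all genes 2.75% and 1.2%).

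Of the injury-induced genes, Slpi, an epithelial protease inhibitor with antimicrobial activity, had 8.05, 7.77, 8.05 and 7.82 without passive SIgA and 8.40, 8.35, 9.02 and 8.37 with it. The arms did not overlap, with a difference of -0.61 ± 0.13 (adjusted p = 0.213), and Slpi rose with DSS by 0.88 without and by 1.60 with passive SIgA. Tgm2, a transglutaminase that cross-links proteins, had 8.79, 8.76, 8.63 and 8.67 without and 9.19, 9.22, 8.94 and 9.08 with passive SIgA. Its difference was -0.39 ± 0.09 (adjusted p = 0.236), and it rose with DSS by 1.15 without and by 1.62 with passive SIgA. Ccnd1, cyclin D1, which drives entry into the cell cycle, had 10.68, 10.38, 10.56 and 10.67 without and 11.04, 10.97, 11.07 and 10.93 with passive SIgA. All 4 levels without passive SIgA were lower (-0.43 ± 0.08, adjusted p = 0.133), and Ccnd1 rose with DSS by 0.61 without and by 0.82 with it. Among the other lower genes, Cmah, the hydroxylase that makes N-glycolylneuraminic acid, was lower, at -0.44 ± 0.08 (adjusted p = 0.108), and was the only named gene on the lower side also called in untreated mice (-0.34, adjusted p = 0.0445). Zfand2a, a zinc finger gene induced by arsenite and proteotoxic stress, was lower, at -0.52 ± 0.11 (adjusted p = 0.191).

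On the higher side, Atp12a encodes the alpha subunit of the non-gastric H+/K+-ATPase of the distal colon. Its levels were 10.20, 11.21, 10.49 and 10.29 without passive SIgA and 9.84, 9.76, 9.06 and 9.66 with it. Every array without passive SIgA was the higher, with 1 pool of Pigr+/- offspring well above the rest, and the difference was 0.96 ± 0.18 (adjusted p = 0.126). Without that pool it was 0.71. In untreated mice, Atp12a was higher without passive SIgA by 0.78 (adjusted p = 0.0435), and by 0.76 in Pigr-/- offspring alone (adjusted p = 0.453).

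Slc37a2, a sugar phosphate transporter of the absorptive colonocyte list, had 9.74, 9.63, 9.51 and 9.41 without passive SIgA and 9.26, 9.27, 8.82 and 8.31 with it. The arms did not overlap, and the lowest level was in Pigr-/- offspring with passive SIgA. The difference was 0.66 ± 0.10 (adjusted p = 0.0645), at 0.43 in Pigr+/- and 0.90 in Pigr-/- offspring. Slc37a2 fell with DSS in both arms, with differences of -1.44 without passive SIgA and -1.996 with it (adjusted p = 6.21e-06 and 3.86e-07). Eno3, a muscle-type enolase of glycolysis, had 10.07, 10.23, 10.07 and 9.70 without and 9.94, 9.60, 9.21 and 9.23 with passive SIgA. The arms overlapped, at 9.70 against 9.94, with a difference of 0.52 ± 0.10 (adjusted p = 0.133), and Eno3 fell with DSS too, with differences of -0.83 without and -1.36 with passive SIgA.

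**Figure D2:**
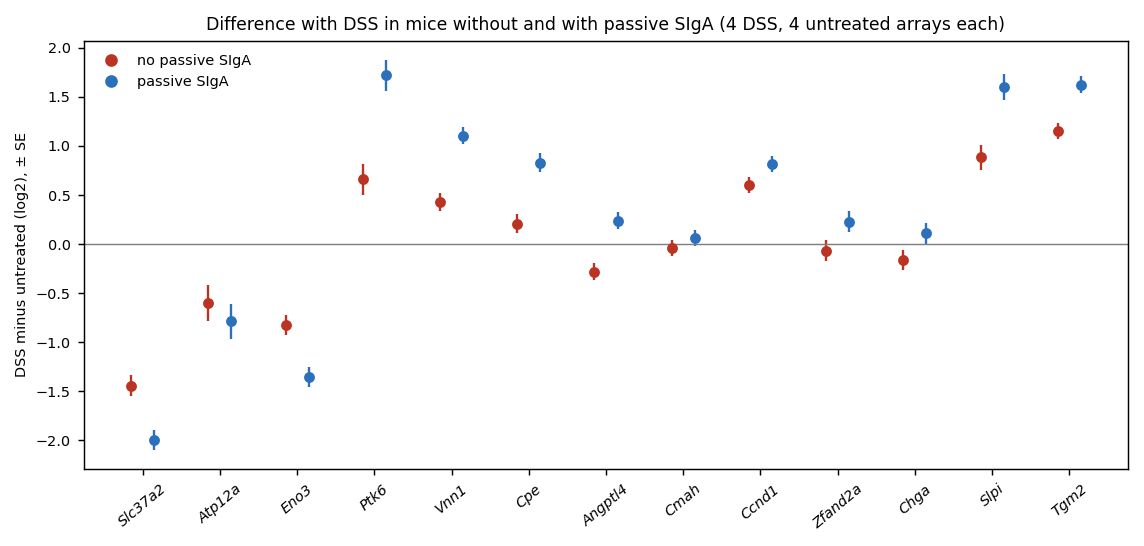
DSS minus untreated difference (log2, ± SE) of 13 named protein-coding genes in mice without (red) and with (blue) passive SIgA, each from 4 DSS and 4 untreated arrays. Ptk6 stands at 0.66 without and 1.72 with passive SIgA, and Slc37a2 at -1.44 without and -1.996 with it.

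The DSS differences share their DSS arrays with the comparison without against with passive SIgA and are not independent of it. The difference between the 2 passive SIgA differences, after DSS minus untreated, was -1.06 for Ptk6 (adjusted p = 0.0943), -0.68 for Vnn1 (adjusted p = 0.068), -0.72 for Slpi (adjusted p = 0.21) and 0.55 for Slc37a2 (adjusted p = 0.232), and none of the 20 named genes was called. The untreated group with passive SIgA and Pigr+/- offspring stood apart from all other arrays, with a mean level of 5.26 and 5.41 over chemosensory receptor and keratin-associated genes against 4.45 to 4.71 on the DSS arrays, and the DSS differences with passive SIgA rest in part on it. In Pigr-/- offspring alone, the same differences were -1.54 ± 0.31 for Ptk6 (adjusted p = 0.478), -0.76 ± 0.18 for Vnn1 (adjusted p = 0.902) and 0.62 ± 0.21 for Slc37a2 (adjusted p = 0.972). These differences do not use that group, but their SE and adjusted p are from the limma fit of all 16 arrays, which holds it.

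Small structural RNAs held most of the smallest p-values on the higher side. Many of them act in the making of other RNAs. Most C/D box (Snord) and H/ACA box (Snora) small nucleolar RNAs guide the modification of ribosomal RNA. U3 (Rnu3a), U8 (Snord118) and Rmrp are needed to cut its precursor, and small nuclear RNAs build the spliceosome. The small structural RNAs made up 12 of the 17 smallest p-values and 26 of the 50 smallest, against 69 of 19938 genes (0.346%). This set was put together after its values had been seen, so its counts describe these arrays only. Of the 69, 52 were higher and 0 lower at an unadjusted p under 0.05 (all genes 1.2% higher and 2.75% lower), and 66 were above 0 (45% of all genes). For 42 of the 69, all arrays without passive SIgA lay above all arrays with it (1.12% of all genes). The median difference of the 69 was 0.47, against -0.01 over all genes, at 0.50 in Pigr+/- and 0.45 in Pigr-/- offspring. The mean level of the 69 was 9.59, 9.41, 9.51 and 9.66 on the arrays without passive SIgA, and 8.91, 9.10, 9.14 and 9.15 on those with it.

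Snord118 (U8) had 12.52, 12.23, 12.85 and 12.68 without passive SIgA and 11.13, 10.96, 11.82 and 11.60 with it. It showed the largest upward difference of all genes, 1.19 ± 0.17 (adjusted p = 0.0645), and was higher in untreated mice without passive SIgA too, by 0.97 (adjusted p = 0.0108), and by 0.50 in Pigr-/- offspring alone (adjusted p = 0.668). Rnu3a (U3) had 10.73, 10.56, 10.69 and 10.92 without and 9.64, 9.62, 10.04 and 9.87 with passive SIgA, a difference of 0.93 ± 0.14 (adjusted p = 0.0645). Both thus had arms about 1 log2 unit apart with no overlap. Rmrp, the RNA of a nuclear and mitochondrial ribonuclease, had 12.81, 12.53, 12.75 and 13.00 without and 12.20, 12.15, 12.31 and 12.27 with passive SIgA (0.54 ± 0.11, adjusted p = 0.166). Rprl2, annotated as a ribonuclease P RNA-like gene, had 10.42, 10.37, 10.34 and 10.43 without and 9.83, 9.90, 10.02 and 9.96 with passive SIgA. Its arms were the most even within themselves, 0.46 ± 0.08 apart (adjusted p = 0.071), and it was higher by 0.56 in untreated mice (adjusted p = 0.00362).

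By class, the H/ACA RNAs had the highest median among those with more than 4 members, 0.66 over 20, of which 17 were higher at an unadjusted p under 0.05 (all genes 1.2%). The C/D RNAs had 22 of 32 higher with a median of 0.43. Snora73b (0.74 ± 0.12, adjusted p = 0.0645), Snora44 (0.82 ± 0.14, adjusted p = 0.071) and Snora33 (0.99 ± 0.17, adjusted p = 0.0945) did not overlap between the arms. Rnu12, the U12 RNA of the minor spliceosome, was higher by 0.58 ± 0.11 (adjusted p = 0.133), Rnu5g by 0.71 ± 0.16 (adjusted p = 0.247), and the Y RNA Rny1, bound by the Ro protein, by 0.97 ± 0.19 (adjusted p = 0.163). The long RNAs that host small nucleolar RNAs in their introns were not all on this side. Snhg17 had 9.64, 9.58, 9.57 and 9.996 without and 9.01, 8.87, 9.31 and 8.82 with passive SIgA (0.69 ± 0.13, adjusted p = 0.126), whereas Gas5 was at -0.28 ± 0.16 (adjusted p = 1). Of 6 hosts 2 were higher and 1 lower at an unadjusted p under 0.05 (all genes 1.2% and 2.75%). MicroRNA genes, 300 in all, had a median of 0.02, with 7 higher and 2 lower by the same threshold, against 1.2% and 2.75% of all genes.

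**Figure D3:**
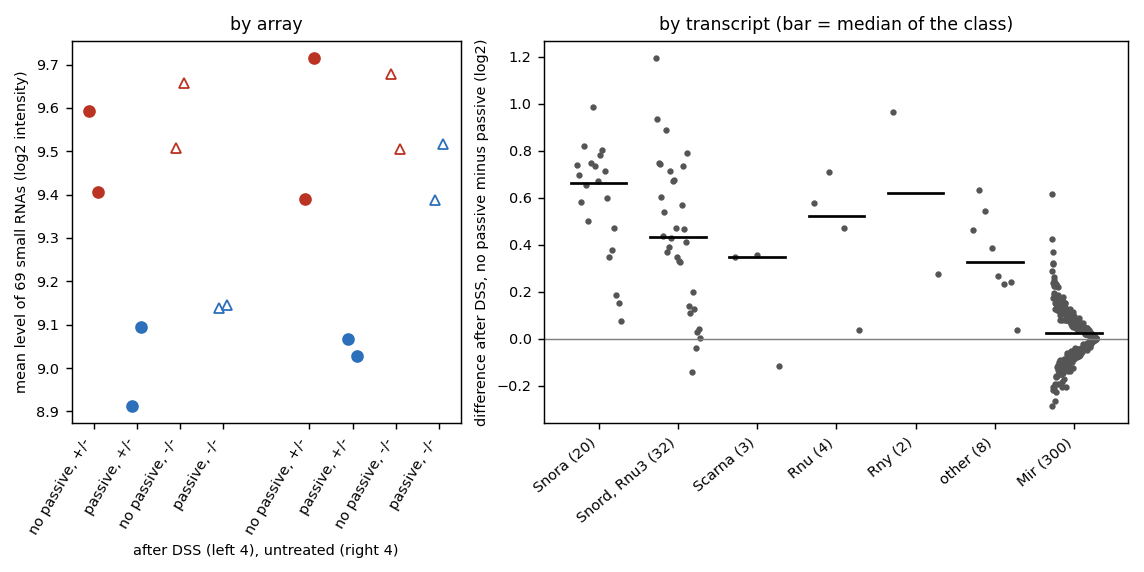
Left, mean log2 level of 69 small structural RNAs on each of the 16 arrays (red, without, and blue, with passive SIgA, circles for Pigr+/- and open triangles for Pigr-/- offspring); right, the difference after DSS for each small RNA by class, with bars at the class median and the number of members in brackets. After DSS the arrays without passive SIgA stand at 9.41 to 9.66 and those with it at 8.91 to 9.15, and the H/ACA (Snora) class has its median at 0.66.

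In untreated mice the median of the 69 was 0.34, but 0.11 in Pigr-/- offspring alone, where the arrays without passive SIgA stood at 9.68 and 9.50 and those with it at 9.39 and 9.52 and overlapped. Whole-transcript labelling starts from total RNA that was admitted at an integrity number of 8.5 or more, and the yield of short RNAs can vary between preparations. No per-sample integrity value or spike-in was analysed here, and the part of preparation in this shift was not tested.

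One microRNA gene, Mir3068, was among the 50 smallest p-values. Its levels were 6.73, 6.72, 6.71 and 6.92 without passive SIgA and 6.13, 5.78, 6.32 and 6.38 with it. The arms did not overlap and differed by 0.61 ± 0.13 (adjusted p = 0.191). Its mature strands are shown because it was the 1 microRNA gene ranked among the structural RNAs. They are from RefSeq (build GRCm38.p6, minus strand), at chr12:87437724-87437747 and chr12:87437685-87437706, with the seed, bases 2 to 8, in capitals. The 2 strands have different seeds, and the probe set does not tell them apart.
mmu-miR-3068-5p: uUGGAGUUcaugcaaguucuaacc
mmu-miR-3068-3p: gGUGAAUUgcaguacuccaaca

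Genes of enteroendocrine cells, the hormone-secreting cells of the epithelium, were mostly lower without passive SIgA. Of 22 measured, 10 were lower and 0 higher at an unadjusted p under 0.05 (all genes 2.75% and 1.2%), 20 were below 0 (all genes 55%), for 7 every array without passive SIgA lay below every array with it (all genes 1.97%), and none passed at an adjusted p under 0.05. The median was -0.17, at -0.20 in Pigr+/- and -0.16 in Pigr-/- offspring, against -0.01 over all genes. The mean level of the list ran from 7.19 to 7.28 on the arrays without passive SIgA and from 7.41 to 7.50 on those with it, without overlap. In RNA of a whole isolate, fewer cells of a type and less RNA per cell cannot be told apart.

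Cpe, carboxypeptidase E, which trims prohormones, had 6.95, 6.66, 6.51 and 6.43 without passive SIgA and 7.20, 7.42, 7.37 and 7.11 with it. It had the smallest p of the list (-0.64 ± 0.10, adjusted p = 0.0645) and rose with DSS in mice with passive SIgA, by 0.83 (adjusted p = 0.000204). Its DSS difference without passive SIgA was 0.21 (adjusted p = 0.351), and the difference between the arms in this respect was -0.62 (adjusted p = 0.129). The granule protein gene Chga had 9.02, 9.09, 9.59 and 9.09 without and 9.71, 9.64, 9.68 and 9.74 with passive SIgA (-0.49 ± 0.10, adjusted p = 0.191). Its paralogue Chgb had 9.10, 9.31, 9.33 and 9.36 without and 9.46, 9.87, 9.58 and 9.82 with passive SIgA (-0.41 ± 0.10, adjusted p = 0.415). The arms of both were separate, with 1 pool of Pigr-/- offspring close to the arrays with passive SIgA for Chga. Tph1, which makes the serotonin of enterochromaffin cells, had 7.64, 7.92, 7.98 and 7.80 without and 8.27, 8.28, 8.44 and 8.48 with passive SIgA (-0.53 ± 0.12, adjusted p = 0.265). Gcg, the gene of glucagon-like peptides in L cells, had 9.43, 9.25, 9.37 and 9.13 without and 9.68, 10.10, 9.82 and 9.57 with passive SIgA (-0.50 ± 0.12, adjusted p = 0.415). Neurod1, a transcription factor of enteroendocrine differentiation, was lower, at -0.42 ± 0.14 (adjusted p = 0.997). Snap25, a vesicle fusion protein kept in the neuron and glia list, had 6.92, 7.14, 7.24 and 6.94 without and 7.66, 7.52, 7.44 and 7.42 with passive SIgA (-0.45 ± 0.10, adjusted p = 0.278). The neuron list as a whole had a median of -0.00 over 13 genes, and 1 of them was lower at an unadjusted p under 0.05 (all genes 2.75%). In untreated mice the enteroendocrine median was -0.06, and 0.01 in Pigr-/- offspring.

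Sequence around the start of 3 of these hormone and granule genes is given because their levels lay on the same side. Promoters in the RefSeq table (build GRCm38.p6) run from 250 bases before to 50 after a start, and 20 of the 22 enteroendocrine genes had one. Both strands were searched for the cyclic AMP response element TGACGTCA and for the TATA box TATAAA, and each match is in capitals. The first was found in 5 of the 20 genes (25%, Chgb, Pax6, Pcsk1, Scg2 and Sst), against 2.03% of 27025 genes. The second was found in 3 (15%, Chga, Gcg and Insl5), against 15.7% of genes. A match describes the letters only. Chga lies at chr12:102554691-102554990 on the plus strand and has 1 TATA box, which begins after the annotated start, Chgb at chr2:132781392-132781691 on the plus strand with 1 cyclic AMP response element, and Gcg at chr2:62483604-62483903 on the minus strand with 2 TATA boxes, 1 of them on the other strand.
Chga: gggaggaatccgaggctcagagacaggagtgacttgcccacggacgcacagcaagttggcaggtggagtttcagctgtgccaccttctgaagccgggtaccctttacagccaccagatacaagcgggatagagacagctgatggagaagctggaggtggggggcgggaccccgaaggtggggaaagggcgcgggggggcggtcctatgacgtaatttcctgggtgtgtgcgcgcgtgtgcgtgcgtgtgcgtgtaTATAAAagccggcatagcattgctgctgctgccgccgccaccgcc
Chgb: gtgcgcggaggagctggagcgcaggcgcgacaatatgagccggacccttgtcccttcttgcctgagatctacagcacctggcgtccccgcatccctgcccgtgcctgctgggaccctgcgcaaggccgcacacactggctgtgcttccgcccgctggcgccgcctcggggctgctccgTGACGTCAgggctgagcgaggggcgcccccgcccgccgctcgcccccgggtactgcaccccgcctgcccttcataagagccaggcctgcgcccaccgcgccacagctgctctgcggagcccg
Gcg: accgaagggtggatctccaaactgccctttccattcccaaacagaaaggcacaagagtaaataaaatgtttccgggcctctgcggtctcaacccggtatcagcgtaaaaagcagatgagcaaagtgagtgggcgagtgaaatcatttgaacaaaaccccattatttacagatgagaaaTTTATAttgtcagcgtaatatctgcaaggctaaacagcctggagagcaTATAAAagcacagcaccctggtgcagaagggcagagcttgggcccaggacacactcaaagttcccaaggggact

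Of 32 cell cycle genes measured, 31 were below 0 (all genes 55%), 12 were lower and 0 higher at an unadjusted p under 0.05 (all genes 2.75% and 1.2%), and 4 had all arrays without passive SIgA below those with it (all genes 1.97%). None passed at an adjusted p under 0.05, and the median was -0.21, at -0.17 in Pigr+/- and -0.27 in Pigr-/- offspring. The genes with the smallest p after Ccnd1 act in DNA synthesis. Rrm2, a subunit of ribonucleotide reductase, had 8.92, 8.33, 8.51 and 8.71 without and 8.89, 8.88, 9.37 and 9.18 with passive SIgA (-0.46 ± 0.12, adjusted p = 0.528). Mcm6, of the replicative helicase, had 8.47, 8.27, 8.07 and 8.22 without and 8.63, 8.33, 8.88 and 8.82 with passive SIgA (-0.41 ± 0.11, adjusted p = 0.702). The arms of both overlapped through the pools of Pigr+/- offspring. Mcm5, of the same helicase, did not overlap (-0.32 ± 0.10, adjusted p = 0.898). The mean level of the list was 8.76, 8.25, 8.53 and 8.68 without and 8.72, 8.65, 8.96 and 8.82 with passive SIgA, so that the arms overlapped and 1 pool of Pigr+/- offspring was the lowest. The count hung on single pools: 5 members were lower at an unadjusted p under 0.05 without that pool and 25 without the other pool of that group, and with passive SIgA 6 without the first pool of Pigr-/- and 7 without the first pool of Pigr+/- offspring. The untreated median was of like size, -0.20.

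**Figure D4:**
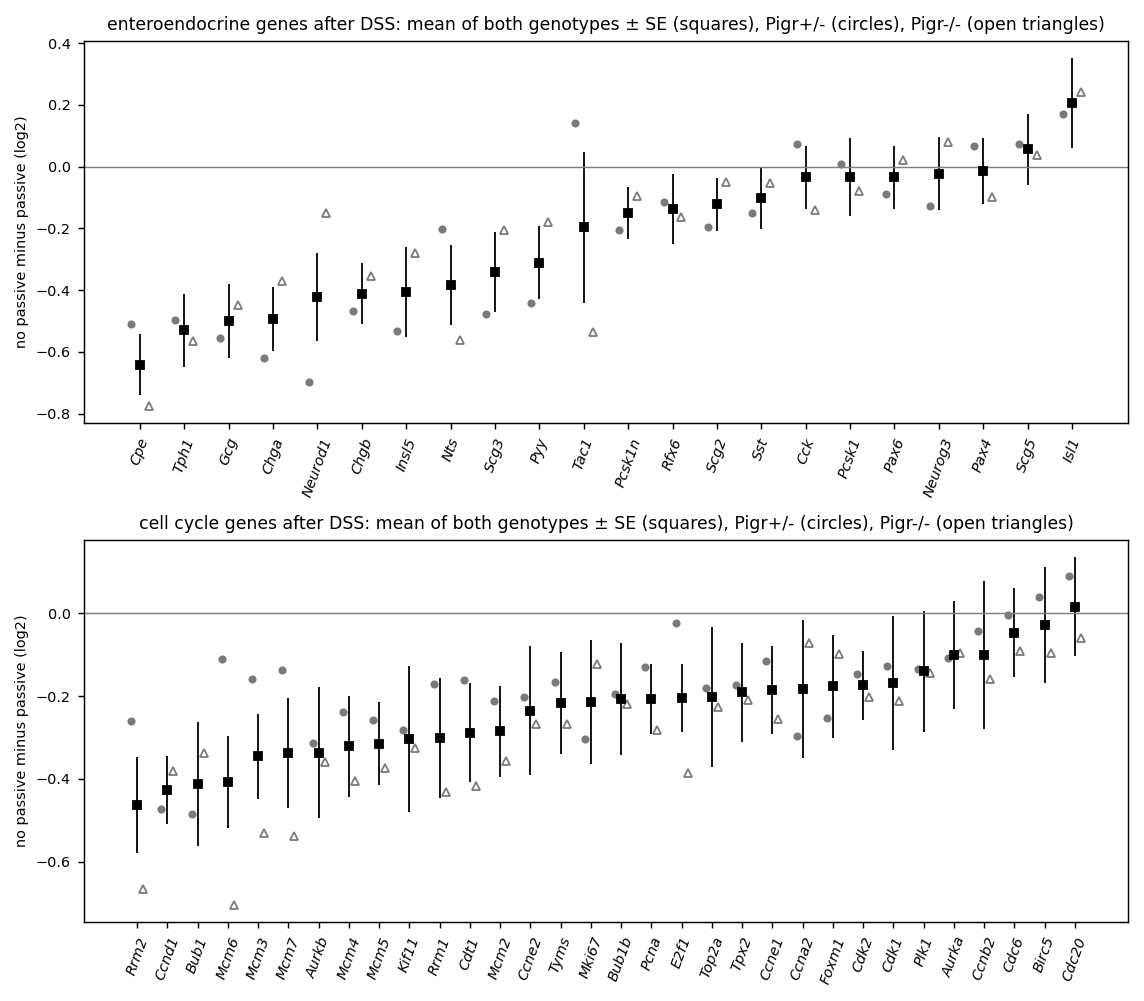
Difference after DSS, without minus with passive SIgA (log2), of 22 enteroendocrine and 32 cell cycle genes, as the mean of both offspring genotypes ± SE (squares) and for Pigr+/- (circles) and Pigr-/- offspring (open triangles). Of the enteroendocrine genes 20 lie below 0, down to -0.64 for Cpe, and of the cell cycle genes 31 do, down to -0.46 for Rrm2.

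Antimicrobial and inflammatory genes are induced by DSS. Among the antimicrobial, cytokine and chemokine genes none passed at an adjusted p under 0.05, and more were lower than higher at an unadjusted p under 0.05. Of 32 antimicrobial genes, 4 were lower and 1 higher at an unadjusted p under 0.05 (all genes 2.75% and 1.2%), with a median of -0.08. Lcn2, which binds bacterial siderophores, had 7.20, 7.003, 7.13 and 6.48 without passive SIgA and 7.60, 7.96, 8.21 and 7.08 with it. The arms overlapped through 1 pool of Pigr-/- offspring with passive SIgA (-0.76 ± 0.20, adjusted p = 0.681). Ang4, an antimicrobial angiogenin, had 6.63, 6.45, 6.78 and 6.76 without and 7.13, 6.78, 7.27 and 7.27 with passive SIgA, with no overlap but with a gap near 0 (-0.46 ± 0.13, adjusted p = 0.746). Pla2g2a, a bactericidal phospholipase, was lower, at -0.39 ± 0.11 (adjusted p = 0.746). Reg3g, a lectin that kills Gram-positive bacteria and rose strongly with DSS (by 3.23 without and 2.46 with passive SIgA), differed by -0.15 ± 0.25 between the arms, and Nos2, nitric oxide synthase, by -0.04 ± 0.11. These 2 were named after their values were seen.

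Of 30 cytokines and chemokines, 5 were lower and 0 higher at an unadjusted p under 0.05 (all genes 2.75% and 1.2%), with a median of -0.08. Ccl5, a chemoattractant of T cells, had 8.44, 8.08, 8.41 and 8.39 without and 8.73, 8.68, 8.57 and 8.96 with passive SIgA. Its arms were separate (-0.41 ± 0.10, adjusted p = 0.438), and it was lower in untreated mice too (-0.48, adjusted p = 0.0262), at -0.40 in Pigr-/- offspring alone (adjusted p = 0.474). Ccl3, a macrophage chemokine, was lower, at -0.58 ± 0.19 (adjusted p = 0.967), at -1.08 in Pigr+/- and -0.08 in Pigr-/- offspring. The 7 MHC class II genes had the lowest median of any list, -0.31, with 2 lower at an unadjusted p under 0.05 (all genes 2.75%). Those were H2-DMa (-0.38 ± 0.11, adjusted p = 0.773), whose arms did not overlap, and the invariant chain Cd74 (-0.56 ± 0.23, adjusted p = 1). In untreated mice the MHC class II median was -0.25, and -0.57 in Pigr-/- offspring alone. Markers of the cells that could carry these genes were at -0.16 in the median for 18 neutrophil genes, with array means of 6.58 to 6.76 without and 6.67 to 7.07 with passive SIgA. For 29 macrophage genes the median was -0.05, with 6.35 to 6.54 without and 6.31 to 6.60 with passive SIgA, and their part in these values was not tested. Interferon response (median -0.04 over 25 genes), NF-kB (-0.01 over 29) and MHC class I genes (0.02 over 9) were near 0.

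Ion and water transport genes, which carry out the colon's absorption and secretion, had 7 members higher and 1 lower of 32 at an unadjusted p under 0.05 (all genes 1.2% higher and 2.75% lower), with a median of 0.01. Besides Atp12a, they were led by the chloride channel gene Ano1, at 9.31, 9.40, 9.43 and 9.45 without and 9.42, 9.04, 8.88 and 9.01 with passive SIgA (0.31 ± 0.09, adjusted p = 0.773). Slc26a3, the chloride and bicarbonate exchanger of surface cells, had 11.94, 12.31, 12.07 and 11.86 without and 11.76, 11.76, 11.49 and 11.96 with passive SIgA (0.30 ± 0.11, adjusted p = 1). The arms of both overlapped. Scnn1a, of the epithelial sodium channel, was at 0.29 ± 0.12, and the water channel gene Aqp8 at 0.32 ± 0.14 (adjusted p = 1 each). The number higher was 2 without the first pool of Pigr-/- offspring in either arm, and 3 without the second pool of Pigr+/- offspring that lacked passive SIgA. Absorptive colonocyte genes, 3 of which are among those just named, had 6 higher and 1 lower of 32 by the same threshold and a median of -0.01.

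Of 20 genes of the mucus-forming goblet cells, 4 were lower and 0 higher at an unadjusted p under 0.05 (all genes 2.75% and 1.2%), with a median of -0.02, and Muc2, the main secreted mucin and named after its values were seen, differed by -0.08 ± 0.08. B3gnt6, which extends the core of mucin sugars, had 7.95, 7.97, 8.16 and 7.87 without and 8.33, 8.56, 8.37 and 8.59 with passive SIgA, with no overlap (-0.48 ± 0.13, adjusted p = 0.702). Of 17 heat shock genes, all were below 0 (all genes 55%) and 3 were lower at an unadjusted p under 0.05 (all genes 2.75%), with a median of -0.09. Hspd1, the mitochondrial chaperonin, had 11.61, 11.22, 11.15 and 11.62 without and 11.67, 12.01, 11.75 and 11.66 with passive SIgA (-0.37 ± 0.12, adjusted p = 0.928). Leaving out the second pool of Pigr+/- offspring without passive SIgA, or the first pool of Pigr-/- offspring in either arm, left 1 heat shock gene lower. In untreated mice the heat shock median was -0.17, and -0.26 in Pigr-/- offspring alone. Clock genes had a median of 0.13 over 18, with 3 higher and 1 lower at an unadjusted p under 0.05 (all genes 1.2% higher and 2.75% lower): the repressor genes Nr1d1 (0.32 ± 0.11) and Nr1d2 (0.32 ± 0.13) were on the higher side and their target Arntl on the lower (-0.34 ± 0.16), each at an adjusted p of 1. In untreated mice the clock median was larger, 0.35, and 0.36 in Pigr-/- offspring alone. There Nr1d2 was at 0.86 over both genotypes (limma, adjusted p = 0.00464) and at 0.69 in Pigr-/- offspring (adjusted p = 0.282). The labels used here give no hour of collection. Tight junction genes had 1 lower of 26 (all genes 2.75%), the pore-forming claudin gene Cldn2 (-0.38 ± 0.11, adjusted p = 0.719). Tuft cell, oxidative phosphorylation, sterol synthesis and hypoxia lists had 0 members past an unadjusted p of 0.05.

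**Figure D5:**
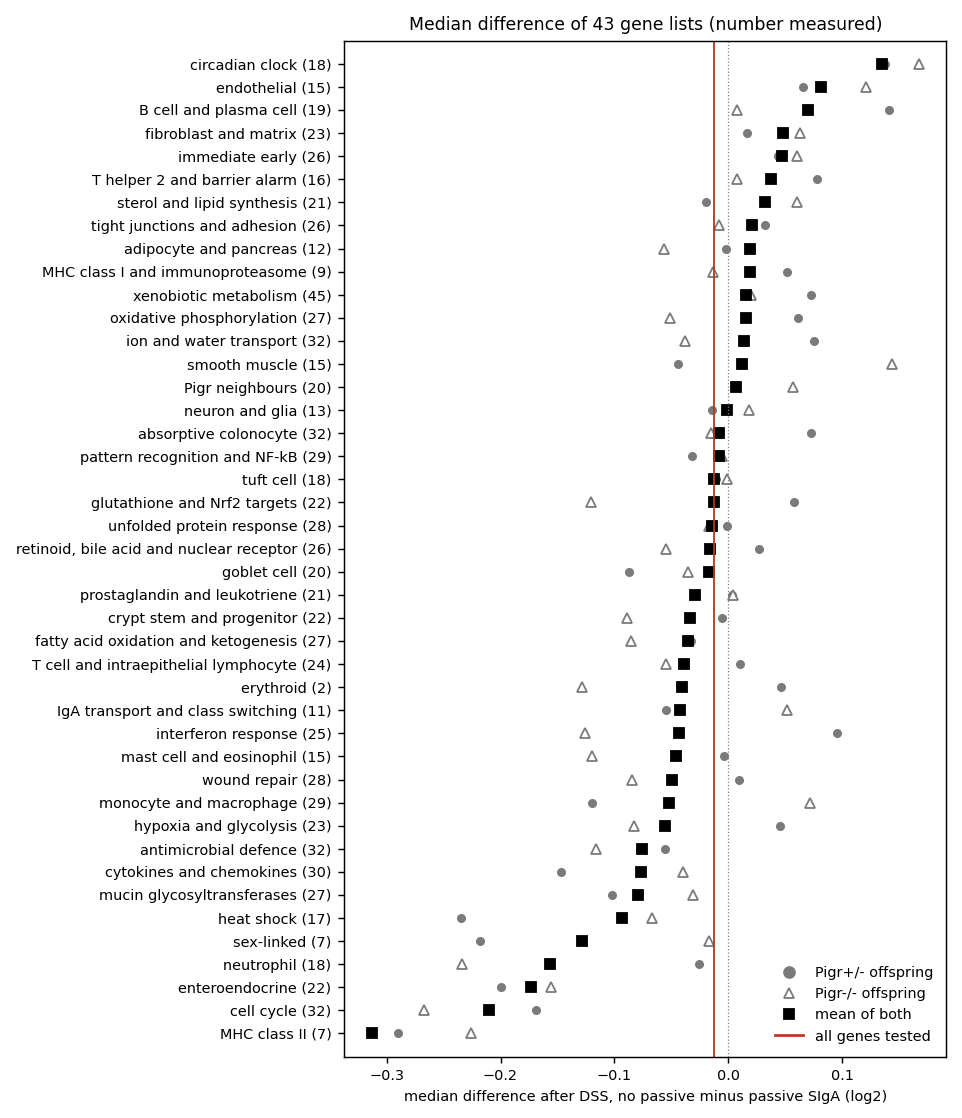
Median difference after DSS, without minus with passive SIgA (log2), of 43 gene lists with the number of genes measured in brackets, as the mean of both genotypes (squares) and for Pigr+/- (circles) and Pigr-/- offspring (open triangles); the red line is the median of all genes, -0.01. MHC class II, cell cycle and enteroendocrine lists lie lowest, at -0.31, -0.21 and -0.17, and the clock list highest, at 0.13.

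Whether the lack of passive SIgA acted alike in offspring that could and could not export their own SIgA was asked by the difference of the 2 differences. It called 0 of 19938 genes (0%), with 426 (2.14%) at an unadjusted p under 0.05, and neither genotype alone gave a call (0% each). In Pigr+/- offspring 622 genes (3.12%) and in Pigr-/- offspring 629 (3.15%) had an unadjusted p under 0.05. The SE of a gene was 0.15 in the median within a genotype and 0.106 over both. Of the 20 named genes, 12 had the larger difference in Pigr-/- offspring. In Pigr+/- offspring the lower genes with the smallest p were Inhba (activin A, -0.63, adjusted p = 0.725), the collagenase gene Mmp13 (-0.57, adjusted p = 0.725) and Hsd11b2, which inactivates corticosterone (-0.48, adjusted p = 0.75).

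The most divergent genes pointed opposite ways in the 2 genotypes, though none passed. Tmigd1, an adhesion protein of differentiated colonocytes, had 8.89 and 9.08 without and 8.50 and 8.65 with passive SIgA in Pigr+/- offspring. In Pigr-/- offspring it had 8.53 and 8.68 without and 9.42 and 9.27 with passive SIgA, a divergence of 1.15 ± 0.20 (adjusted p = 0.887). S100g, an intestinal calcium-binding protein, and Aldh1a1, a retinaldehyde dehydrogenase, diverged in the same sense, by 1.20 and 0.89. Acta2, smooth muscle actin, went the other way, with 7.02 and 7.10 without and 8.13 and 7.47 with passive SIgA in Pigr+/- offspring, and 7.39 and 7.66 without and 6.91 and 6.81 with passive SIgA in Pigr-/- offspring. It diverged by -1.40 ± 0.25 (limma, adjusted p = 0.887). The pool at 8.13 also had the highest mean of the smooth muscle list, which includes Acta2, at 6.99 against 6.60 to 6.87 on the other DSS arrays. The smooth muscle list had a median of -0.04 in Pigr+/- and 0.14 in Pigr-/- offspring, and the part of muscle tissue in Acta2 was not tested.

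Against untreated mice, the comparison after DSS held fewer calls: lack of passive SIgA gave 514 genes (2.58%) in untreated mice, 155 higher (0.777%) and 359 lower (1.8%), and 0 after DSS. Of the 514, 217 were chemosensory receptor or keratin-associated genes, which made up 1275 of the 19938 genes tested. In Pigr-/- offspring alone, fitted without the group that stood apart, the untreated count was 0, with 1379 of 19938 genes at an unadjusted p under 0.05. The difference between the 2 conditions called 23 genes (0.115%), all higher, 17 of them of those same classes. In Pigr-/- offspring alone it called 0, with 777 of 19938 genes at an unadjusted p under 0.05. Those fits in Pigr-/- offspring alone compare groups of 2 arrays, against 4 arrays an arm over both genotypes. The part of the fewer arrays in these counts of 0 was not tested. Of the 20 named genes, 15 had the same sign in untreated mice and 4 were called there, namely Rprl2, Atp12a, Rnu12 and Cmah. The share of all genes with the same sign was not counted. In untreated Pigr-/- offspring alone, by the limma fit of all 16 arrays, Rprl2 was at 0.62 (adjusted p = 0.173), Rnu12 at 0.27 (adjusted p = 0.78) and Cmah at -0.47 (adjusted p = 0.249). With Atp12a, all 4 kept their sign and none passed. Other named genes reversed sign there: Rnu3a (-0.14), Rny1 (-0.12), Rmrp (-0.19), Cpe (0.11), Angptl4 (0.03), Chga (0.03) and Slpi (0.07). The rest of the 20 kept the sign they had after DSS.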

How the data were processed

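The deposited table holds log2 intensities of 35557 probe sets on 16 Affymetrix whole-transcript arrays, which the authors made with RMA, per the submitters' processing notes (its version: not given in the sources used here). RMA corrects the background, equalises the distributions of the arrays and summarises each probe set. Raw intensities were not analysed here. Of the probe sets, 21789 named 1 gene, 1621 several and 12147 none. The first kind was used, with the highest mean taken for the 999 genes with several, which left 19938 genes.

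A mean for each of 8 groups of 2 arrays was fitted with limma 3.58.1 in R 4.3.3 over all 16 arrays (8 residual and 5.03 prior degrees of freedom), with moderated two-sided tests, Benjamini-Hochberg adjustment over all genes and calls at an adjusted p under 0.05. Since every array is a pool of 3 mice, the p-values reflect variation among pools rather than single animals, and 4 arrays an arm set the precision. The fit was tested on simulated data.

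Named genes were the 10 with the smallest p in each direction where none passed, and 3 for the other comparisons after DSS; for comparisons with calls they were up to 5 called genes a side. For the main comparison a named gene also had to have the same sign in both offspring genotypes. Predicted, unnamed, microRNA, small nucleolar, chemosensory and ribosomal RNA (n-) symbols were left aside. A list could contribute the 6 members ranked first by p; others are marked as chosen after their values were seen. Of 968 genes in 43 lists 880 were measured. The comparison, its members and the lists were chosen with earlier results of these data known, and the small RNA set after its values were seen.

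Alternatives were other variance models, array weights, a replicate block, other scalings, filters, probe sets and call rules, fewer groups and each array left out in turn. Deviations of same-numbered arrays from their group means correlated between -0.28 and 0.51 among the DSS groups and between -0.30 and 0.67 over all 28 pairs of groups. Of these, the 15 pairs without the DSS groups that lacked passive SIgA ran from 0.045 to 0.67, and 14 of them exceeded 0.1. Pairs of a DSS group lacking passive SIgA with a group of another kind were all negative, from -0.301 to -0.0147. Since not every pair exceeded 0.1, the main fit took no pairing and did not model a factor shared by same-numbered pools. The crossed block given below swaps the numbers in the DSS groups that lacked passive SIgA.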

Additional observations from a re-analysis of the deposited data

Results flagged for a closer look

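Among 40 sets of 4 arrays (20 named genes in 2 arms), 4 held an array whose gap to the next was large for its set's range by Dixon's test at the 95% level, and chance gives such a gap in about 1 set in 20. Snhg17 stood at 9.9959 in the second pool without passive SIgA from Pigr-/- offspring, with the next array at 9.6355. Chga stood at 9.5865 in the first pool without passive SIgA from Pigr-/- offspring, with the next at 9.0892. Rnu5g stood at 5.3531 in the first pool with passive SIgA from Pigr+/- offspring, with the next at 5.8509. Slpi stood at 9.0196 in the first pool with passive SIgA from Pigr-/- offspring, with the next at 8.4005. The 4 arrays are not the same one, and each gene's arms stayed apart with them included.

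The passive SIgA difference was higher after DSS than in untreated mice for Zfp600 by 1.82 ± 0.13 (adjusted p = 5.62e-05), for Mup5 by 1.01 ± 0.16 (adjusted p = 0.0295), for Scgb2b2 by 0.87 ± 0.13 (adjusted p = 0.0295) and for Nyx by 0.70 ± 0.12 (adjusted p = 0.0434), by limma. For Zfp600 the untreated arrays with passive SIgA from Pigr+/- offspring stood at 5.65 and 5.57, against 2.44 to 3.02 on every other array. In Pigr-/- offspring alone the same differences were 0.63 ± 0.18 for Zfp600 (adjusted p = 0.902), 0.22 for Mup5, 0.24 for Scgb2b2 and 0.10 for Nyx.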

How the results depend on the processing

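The 0 genes called for lack of passive SIgA after DSS became 25 (21 higher, 4 lower) with a trend in the prior variance, 16 with the replicate block, 18 with a crossed replicate block (added after the data were seen), 15 without the dimmest 30% of genes, 17 at an adjusted p under 0.1, 4 with arrays centred on their median (Snord118, Rnu3a, Slc37a2, Ptk6), 2 in a fit of only the arrays compared (Snord118, Rnu3a), 2 with the untreated Pigr+/- offspring of Pigr+/- dams left out (Snord118, Ptk6), and 0 to 1 when any array was left out. It stayed at 0 with robust or no moderation, array weights, quantile normalization and all probe sets. A fold of at least 1.5 could only leave it at 0, since it was asked of genes already called in the main fit. In Pigr+/- offspring the replicate block gave 1 (Snord118), and leaving out an array gave 0 to 0; in Pigr-/- offspring this gave 0 to 1 (Slc37a2, without the first pool with passive SIgA). For passive by active SIgA leaving out an array gave 0 to 1 (Acta2). The untreated 514 became 803 with the trend, 202 without the dimmest genes, 189 in a fit of only the arrays compared, 157 to 714 with an array left out and 0 in Pigr-/- offspring only (added). The 23 for passive SIgA by DSS became 0 without the dimmest genes, 1 to 84 with an array left out and 0 in Pigr-/- offspring only (added). With the block the untreated count was 717 (257 higher, 460 lower) and that for passive SIgA by DSS 34 (31 higher, 3 lower), while those for Pigr-/- offspring and for passive by active SIgA stayed at 0. The cause of these shifts was not tested. No named gene changed sign under any alternative, but this was largely fixed in advance. Other variance models, weights, blocks, filters and fewer groups left each difference as it was. Where the arms do not overlap, leaving out an array cannot turn the sign. The largest shift of an array's median by centring was 0.14. Over the alternatives, members past an unadjusted p of 0.05 on the described side numbered 47 to 55 for small RNAs, 7 to 10 for enteroendocrine, 5 to 25 for cell cycle, 1 to 3 for heat shock and 2 to 8 for ion transport genes. A difference over both genotypes had a median SE of 0.106, which limits what 4 arrays an arm can show.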
